A study of Homo sapiens with 12 samples.

Results

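The 60 genes described here encode the machinery of mitosis, the kinesin motors, kinetochore, checkpoint, kinases, spindle and chromosome-condensing proteins that divide a cell. They were taken by gene symbol from the deposited table of 63568 genes, and each of the 60 passed the filter on low values, which left 16337 genes for testing. RNA had been sequenced from LNCaP, a prostate cancer line grown from a lymph node metastasis, after knockdown of SMARCA4, the gene for BRG1, the ATPase that drives SWI/SNF chromatin remodelling complexes. The 4 groups were cells that received a non-targeting control siRNA pool (si-NT, n = 2) or 1 of 2 siRNAs against SMARCA4 (BRG1 depleted, n = 4, 2 libraries per siRNA), each collected at 72 h and at 144 h. The 144 h cells had been split and transfected a second time at 72 h, no other agent or allele was used, and the deposited table numbers the siRNAs 2 and 3. The question addressed was how far the transcripts of each part of the mitotic machinery differed between BRG1 depleted and si-NT cells at each time point.

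When a cell enters mitosis, cyclin B bound to the kinase CDK1 sets off condensation of the chromosomes and assembly of a bipolar spindle, and kinetochores built on the centromeres attach each chromatid to spindle microtubules. The spindle assembly checkpoint holds back the anaphase-promoting complex (APC/C) until every kinetochore is attached, after which separase cuts cohesin and the cell divides at the spindle midzone. Most of these genes are transcribed mainly in G2 and mitosis, under FOXM1 and the MuvB complex with B-MYB, which act through the cell cycle genes homology region (CHR) in many of their promoters, often together with CCAAT boxes bound by NF-Y.

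The promoters of 6 members are shown because these genes lie at the ends of the range of change: CCNB2, KIF20A and MAD2L1 had the 3 most negative log2 fold changes at 144 h, PLK1 lay near the middle, and CDK1 and KIF22 had the values nearest to 0. Each sequence is the 250 bases before the annotated start, 5′ to 3′ in the direction of the gene, from RefSeq on GRCh38.p14. Capitals mark the CHR word, TTTGAA, and the CCAAT box on either strand, and on the other strand the box reads ATTGG. The windows are chr15:59104896-59105145 on the plus strand for CCNB2, chr5:138178862-138179111 on the plus strand for KIF20A, chr4:120066849-120067098 on the minus strand for MAD2L1, chr16:23678639-23678888 on the plus strand for PLK1, chr10:60778081-60778330 on the plus strand for CDK1 and chr16:29790501-29790750 on the plus strand for KIF22.
CCNB2: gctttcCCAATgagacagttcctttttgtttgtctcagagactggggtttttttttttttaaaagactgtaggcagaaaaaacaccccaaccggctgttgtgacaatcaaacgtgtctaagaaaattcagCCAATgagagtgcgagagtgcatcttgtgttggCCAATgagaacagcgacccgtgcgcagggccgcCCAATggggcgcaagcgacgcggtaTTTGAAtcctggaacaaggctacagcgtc
KIF20A: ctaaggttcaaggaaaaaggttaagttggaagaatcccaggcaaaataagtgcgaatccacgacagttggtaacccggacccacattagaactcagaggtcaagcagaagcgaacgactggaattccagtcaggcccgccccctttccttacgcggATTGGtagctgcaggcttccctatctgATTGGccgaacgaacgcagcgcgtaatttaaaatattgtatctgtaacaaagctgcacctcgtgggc
MAD2L1: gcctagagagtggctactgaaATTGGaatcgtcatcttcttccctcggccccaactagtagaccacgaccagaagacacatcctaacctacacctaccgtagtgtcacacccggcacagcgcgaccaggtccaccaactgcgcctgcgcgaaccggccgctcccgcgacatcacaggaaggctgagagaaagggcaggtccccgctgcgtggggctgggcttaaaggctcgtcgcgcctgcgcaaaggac
PLK1: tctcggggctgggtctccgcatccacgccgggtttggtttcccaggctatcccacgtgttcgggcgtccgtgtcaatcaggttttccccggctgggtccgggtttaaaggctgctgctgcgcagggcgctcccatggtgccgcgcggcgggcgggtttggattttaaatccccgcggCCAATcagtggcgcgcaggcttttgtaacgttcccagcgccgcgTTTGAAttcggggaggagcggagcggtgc
CDK1: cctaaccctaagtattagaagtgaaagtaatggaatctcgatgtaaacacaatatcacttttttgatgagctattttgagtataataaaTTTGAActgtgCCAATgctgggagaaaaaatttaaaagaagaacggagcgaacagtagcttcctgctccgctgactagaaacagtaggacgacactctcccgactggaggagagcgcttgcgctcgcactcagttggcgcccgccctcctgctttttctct
KIF22: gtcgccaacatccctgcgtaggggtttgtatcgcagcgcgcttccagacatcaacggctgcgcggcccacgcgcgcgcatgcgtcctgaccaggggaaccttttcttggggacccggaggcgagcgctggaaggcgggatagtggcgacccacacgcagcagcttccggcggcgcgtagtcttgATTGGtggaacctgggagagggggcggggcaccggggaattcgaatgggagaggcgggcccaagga
CCNB2 and PLK1 carry a CHR word 29 bases before the start with a CCAAT box upstream of it, and CCNB2 holds 4 CCAAT boxes in this window. KIF20A holds 2 CCAAT boxes and no CHR word. CDK1 holds a CHR word with a CCAAT box beside it farther from the start, and KIF22 holds a CCAAT box only.

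RefSeq promoters of 300 bases, these 250 and the first 50 of the transcript, were matched for 49 of the 60 members. The CHR word was found on either strand in 32 of them (65.3%), against 15.2% of all 35116 promoters of that length and 9.08% of those of the 10480 genes tested here that had one. A CCAAT box was found in 34 (69.4%, against 34.6% of all promoters), and both words together in 23 (46.9%, against 5.9%). Words like the E2F site (TTTGGCG, the variant TTTCGCG, or the variant TTTCCCG) were found in 6 members (12.2%, against 7.21% of all promoters and 11.5% of the genes tested). In size of change at 144 h, the median log2 fold change was -0.86 for the 32 members with the CHR word and -0.92 for the 17 without it. MAD2L1 has its CHR word 25 bases after the start, outside the sequence printed above.

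All values are in TPM, a share of all transcripts corrected for gene length that sums to the same total in each library and does not record how many reads lie behind it. Changes are log2 fold changes of TPM + 1, BRG1 depleted over si-NT, with the standard error (SE) and adjusted p of limma, and a gene was called where the adjusted p was below 0.05. Nothing in the labels says that replicates came from separate cultures, so p-values measure only the spread between these libraries. The knockdown was seen in every library: SMARCA4 stood at 97.01 and 73.4 TPM in si-NT cells and at 21.7, 19.02, 17.5 and 19.1 TPM in BRG1 depleted cells at 72 h (log2 fold change -2.08 ± 0.16 SE, adjusted p = 0.000538), and at 94.5 and 107 against 15.9, 16.2, 11.4 and 17.4 TPM at 144 h (log2 fold change -2.66 ± 0.16 SE, adjusted p = 1.01e-05). All 9 luminal prostate markers examined were present, summing to between 1864 and 2833 TPM, while basal epithelial (0.04 to 0.38 TPM), endothelial (0.22 to 0.8) and leukocyte (0.34 to 1.2) markers were near 0 and the fibroblast markers (3.1 to 9.13) were almost all COL1A1, with COL1A2 at 0. One library stood apart on the mitotic genes. The second si-NT library at 72 h was lower than the first for 60 of 60 members, at a median of 63.2% of its level (range 39.7% to 82.3%), whereas over all genes tested that median was 101.3%. Comparisons with si-NT at 72 h are therefore given with and without it.

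At 144 h, most of these 60 genes, which were chosen with earlier results of these data known, were lower in BRG1 depleted cells. Of the 60 members, 53 were called lower in BRG1 depleted cells, against 10.8% of all genes tested, and 0 were called higher, against 13.6%. At an unadjusted p below 0.05, limma gave 58 lower (16.6% of genes tested) and 0 higher (20.2%). The median log2 fold change of the members was -0.86, beside 0.03 over all genes tested, and their mean TPM in BRG1 depleted cells had a median of 54.4% of the si-NT mean (range 40.7% to 105.6%). Class medians lay between -0.78 for the genes of mitotic entry and -1.01 for condensin and topoisomerase, and 11 members were called lower by more than 1 on the log2 scale (1.55% of genes tested) and 0 by more than 1.5 (0.404%). Every BRG1 depleted library lay below both si-NT libraries for 57 members, against 22.5% of genes tested. The exceptions, CDC25B, CDK1 and KIF22, overlapped between the groups. In bulk RNA, fewer cells in mitosis and less of each transcript per cell cannot be told apart.

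**Figure D1:**
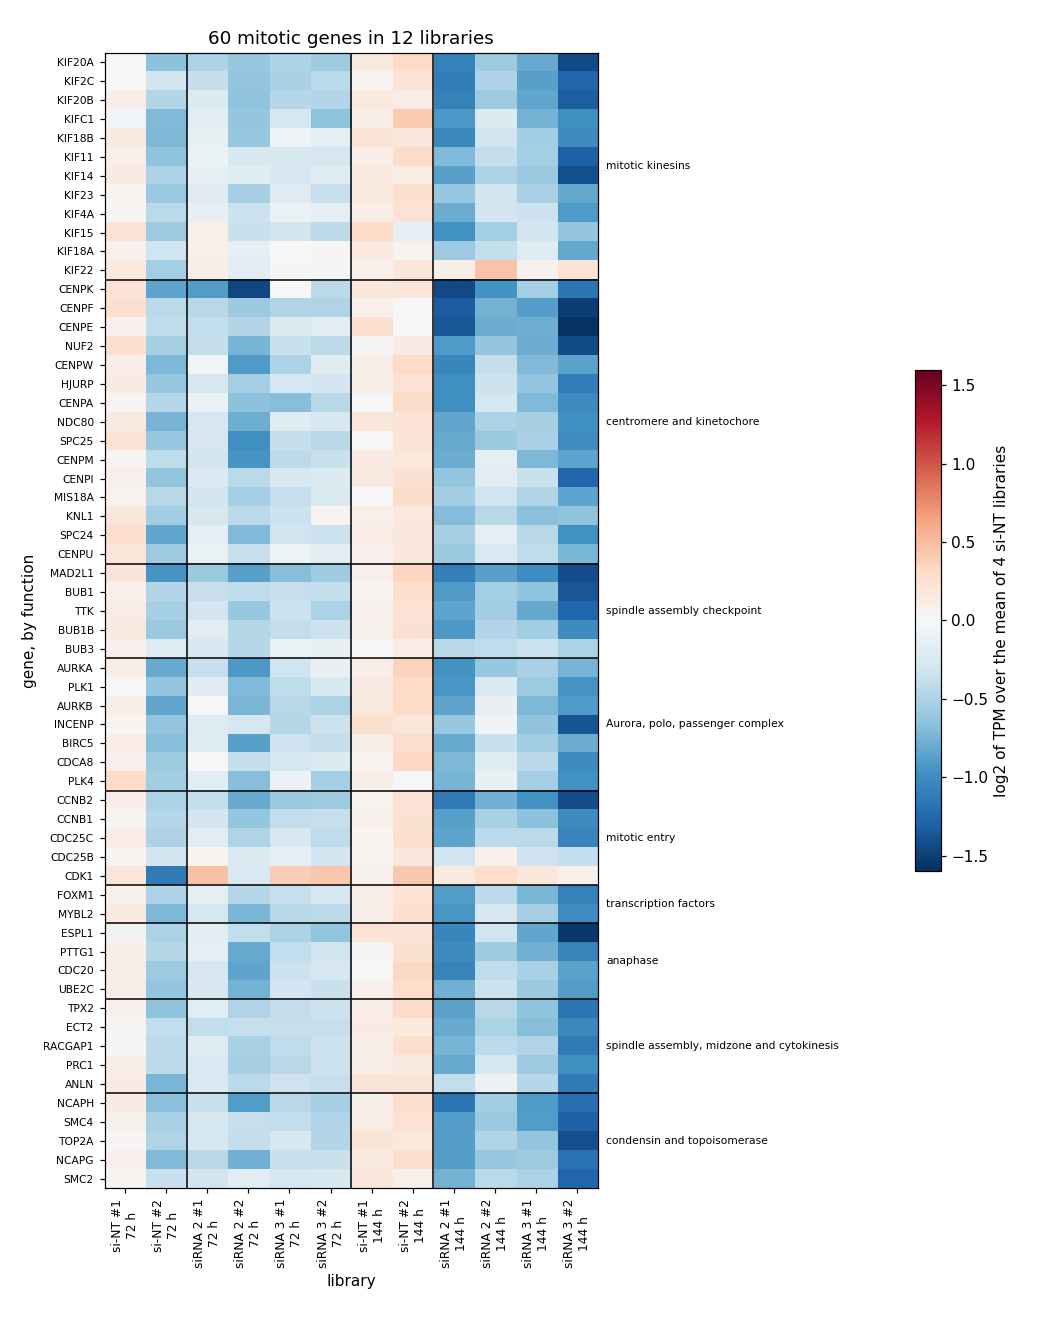
Heat map of the 60 genes (rows, by function) in the 12 libraries (columns, # giving the replicate), coloured by the log2 of TPM over the mean of the 4 si-NT libraries, with red above and blue below that mean. The BRG1 depleted libraries at 144 h are blue in almost every row except KIF22 and CDK1, and the si-NT #2 library at 72 h is blue in all 60 rows.

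The number of calls at 144 h rested on the 2 si-NT libraries. Without si-NT replicate 2, 9 members were called lower (2.44% of genes tested) and 50 had an unadjusted p below 0.05 (10.9%), and without si-NT replicate 1 the numbers were 23 (4.21%) and 52 (12.2%). With either library left out, the remaining one was assumed to vary like the other groups. KIF2C, KIF20A, KIF20B, CENPE, CENPF, CCNB1, CCNB2, ECT2 and SMC4 were the 9 members called lower in each of the 12 fits that left out 1 library. The log2 fold change was negative in all 12 for 58 members, the others being CDK1 and KIF22. Scaled to the ERCC spike-ins, 30 members were called lower (3.76%) and 0 higher (0.845%), and 58 had an unadjusted p below 0.05 and a negative value (19.4%).

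Kinesins are motors that move along microtubules or take them apart, and the 12 mitotic ones build, align and close the spindle. Of these, 10 fell at 144 h, with a median log2 fold change of -0.83 over the 12. KIF20A, the motor that carries the chromosomal passenger complex to the spindle midzone (gene at chr5:137514408-137523412 on GRCh37), fell most. Its si-NT values were 60.3 and 67.5 TPM, against 25.6, 35.96, 30.9 and 19.9 TPM in the BRG1 depleted libraries, given here and below as siRNA 2 replicates 1 and 2, then siRNA 3 replicates 1 and 2 (log2 fold change -1.19 ± 0.21 SE, adjusted p = 0.00252). All 4 depleted values were thus well below both controls, with the lowest in siRNA 3 replicate 2. KIF2C, which strips tubulin from microtubule ends at kinetochores (-1.03), KIF20B, a motor of late cytokinesis (-0.93), KIFC1, which clusters spindle poles (-0.91), KIF18B (-0.87), KIF11, the motor that pushes the poles apart (-0.85), KIF14 (-0.82), KIF23, the motor of the centralspindlin complex (-0.73), KIF4A, a chromosome-bound motor (-0.70), and KIF18A, which damps chromosome movement at the metaphase plate (-0.48), also fell. KIF15, a motor that backs up KIF11, was not called (log2 fold change -0.60 ± 0.22 SE, adjusted p = 0.0649), although its 4 depleted values, 3.89, 5.23, 6.23 and 4.94 TPM, were below the si-NT values of 9.5 and 6.94 TPM. KIF22, a chromokinesin that pushes chromosome arms from the poles, stood at 108 and 118 TPM in si-NT cells and 109.5, 141, 108 and 119 TPM in BRG1 depleted cells. Its groups overlapped and it was not called (log2 fold change 0.07 ± 0.17 SE, adjusted p = 0.8), and the sign of its change turned to -0.33 when libraries were scaled to the ERCC spike-ins and to -0.01 without siRNA 2 replicate 2.

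The 15 centromere and kinetochore members range from centromeric chromatin to the microtubule-binding complex, and 14 of them were called lower at 144 h, with a median of -0.85. CENPK, a subunit of the constitutive centromere network, had the most negative value and the least precise one, at 23.2 and 23.3 TPM in si-NT cells and 7.49, 10.5, 13.9 and 9.17 TPM in BRG1 depleted cells (log2 fold change -1.13 ± 0.36 SE, adjusted p = 0.0384). CENPF, a large coiled-coil protein of the outer kinetochore (-1.13), and CENPE, the kinesin that tethers kinetochores to microtubules (-1.06), followed it. Of the 4 subunits of the NDC80 complex, which grips the microtubule, NUF2 (-0.97), NDC80 (-0.85) and SPC25 (-0.77) fell and SPC24 did not pass the test (log2 fold change -0.65 ± 0.27 SE, adjusted p = 0.0989). Histone CENPA, which marks the centromere (-0.86), its chaperone HJURP (-0.89) and MIS18A, which primes centromeres for new CENPA (-0.66), were all lower. So were the centromere network subunits CENPW (-0.94), CENPM (-0.76) and CENPI (-0.70), and KNL1, the scaffold that recruits the checkpoint proteins (-0.66). CENPU, another subunit of that network, had the smallest fall, from 41.7 and 45.3 TPM to 26.4, 33.5, 30.1 and 23.99 TPM (log2 fold change -0.60 ± 0.19 SE, adjusted p = 0.037), with no overlap between the groups.

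All 5 spindle assembly checkpoint genes fell at 144 h (median -0.94). MAD2L1, the MAD2 protein that is loaded onto CDC20 to block the APC/C (gene at chr4:120976778-120988013 on GRCh37), had the most negative change of the 60 members. Its level was 62.2 ± 7.97 TPM in si-NT cells (SD, n = 2) against 25.4 ± 3.94 TPM after depletion (SD, n = 4), or 40.7% of control (log2 fold change -1.27 ± 0.25 SE, adjusted p = 0.00426). In single libraries it stood at 56.6 and 67.9 TPM against 25.1, 29.4, 26.9 and 20.1 TPM, with all depleted values below both controls. The kinases BUB1 (-0.98) and TTK (-0.94) and the inhibitor BUBR1, encoded by BUB1B (-0.87), which start and carry the checkpoint signal, fell by similar amounts. BUB3, the adaptor that brings BUB1 and BUBR1 to kinetochores, had the smallest fall, from 156 and 171 TPM to 115, 119, 124 and 110.1 TPM, with the lowest SE of the 60 members (log2 fold change -0.48 ± 0.11 SE, adjusted p = 0.0115).

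Among the Aurora and polo kinases and the chromosomal passenger complex, 6 of 7 genes fell at 144 h (median -0.86). AURKA, the kinase of centrosomes and spindle poles, stood at 57.9 and 69.8 TPM in si-NT cells and 27.9, 35.6, 37.7 and 32.3 TPM in BRG1 depleted cells (log2 fold change -0.92 ± 0.25 SE, adjusted p = 0.0206). PLK1, which acts at centrosomes, kinetochores and the midzone, stood at 90.9 and 103 against 43.3, 69.9, 55.3 and 42.8 TPM (log2 fold change -0.89 ± 0.22 SE, adjusted p = 0.0139). The depleted library of siRNA 2 replicate 2 was the highest for PLK1, as it was for 52 of the 60 members. AURKB, the passenger complex kinase that corrects faulty attachments, stood at 81.2 and 89.6 against 40.1, 66.1, 43.7 and 38.4 TPM (log2 fold change -0.88 ± 0.27 SE, adjusted p = 0.0358). BIRC5, or survivin, which docks that complex to centromeres, stood at 79.6 and 90.2 against 42.1, 57.8, 50.3 and 42.5 TPM (log2 fold change -0.81 ± 0.22 SE, adjusted p = 0.0224). The scaffold INCENP (-0.86) and CDCA8, or borealin (-0.75), fell with them, so that all 4 passenger complex genes were lower. PLK4, which starts centriole duplication in S phase, was not called: it stood at 14.6 and 13.6 TPM in si-NT cells and 8.1, 12.4, 9.24 and 6.94 TPM in BRG1 depleted cells (log2 fold change -0.59 ± 0.25 SE, adjusted p = 0.106).

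The genes of mitotic entry were split. Cyclin B2, CCNB2, which localises to the Golgi and shares CDK1 with cyclin B1, stood at 88.9 and 101 TPM in si-NT cells and at 39.2, 50.1, 43.6 and 31.98 TPM in BRG1 depleted cells (log2 fold change -1.20 ± 0.19 SE, adjusted p = 0.00158). CCNB1, the main mitotic cyclin, stood at 291 and 325 against 150.1, 192, 174 and 137 TPM (log2 fold change -0.92 ± 0.16 SE, adjusted p = 0.00228), and CDC25C, a phosphatase that activates CDK1, fell too (-0.78). In each of these 3 genes all depleted libraries lay below both controls. CDK1 itself stood at 301 and 390.1 TPM in si-NT cells and 321, 350.1, 327 and 304 TPM in BRG1 depleted cells at 144 h. Its depleted values all lay between the controls (log2 fold change -0.08 ± 0.30 SE, adjusted p = 0.879), and the sign of this small difference turned to 0.11 without si-NT replicate 2 and to 0.28 against the pooled controls of 72 h and 144 h. CDC25B, the phosphatase that first switches on CDK1 at centrosomes, also overlapped (log2 fold change -0.34 ± 0.15 SE, adjusted p = 0.109), its siRNA 2 replicate 2 value of 30.03 TPM lying above one si-NT library.

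**Figure D2:**
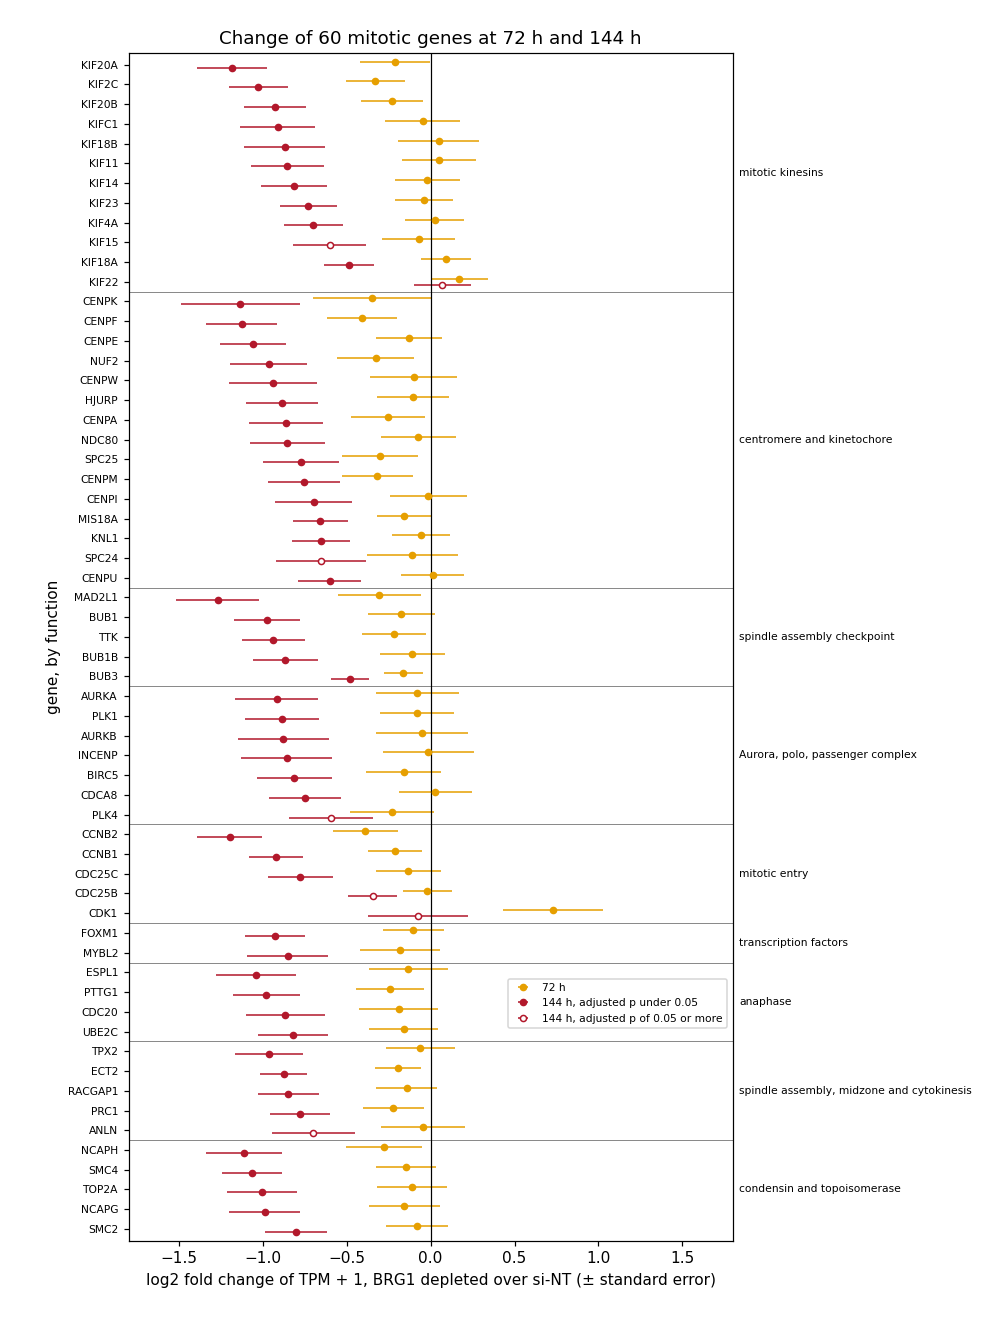
Log2 fold change of TPM + 1, BRG1 depleted over si-NT, with its standard error as a bar, for the 60 genes by function at 72 h (orange) and 144 h (red, open where the adjusted p was 0.05 or more). At 144 h the filled points lie between -1.27 and -0.48, and the 72 h points, none of which passed the test, lie between -0.41 and 0.17 apart from CDK1 at 0.73.

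Both transcription factors among the members fell at 144 h. Whether this bears on the fall of the other members was not tested. FOXM1, the forkhead factor of G2 and mitotic genes, stood at 111 and 121 TPM in si-NT cells and 56, 77.8, 62.6 and 48.95 TPM in BRG1 depleted cells (log2 fold change -0.93 ± 0.18 SE, adjusted p = 0.00422). MYBL2, or B-MYB, which joins the MuvB complex, stood at 72.97 and 81.6 against 35.6, 56.5, 46.9 and 33.9 TPM (log2 fold change -0.85 ± 0.24 SE, adjusted p = 0.0243). Neither gene overlapped between the groups.

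All 4 genes of anaphase fell (median -0.92). ESPL1, or separase, the protease that cuts cohesin, stood at 15.4 and 15.4 TPM in si-NT cells and 6.39, 10.6, 7.42 and 4.54 TPM in BRG1 depleted cells (log2 fold change -1.04 ± 0.24 SE, adjusted p = 0.00937). UBE2C, the ubiquitin-conjugating enzyme of the APC/C, had the smallest fall of the class, from 133 and 153 TPM to 74.1, 99.5, 83.6 and 67.6 TPM (log2 fold change -0.82 ± 0.21 SE, adjusted p = 0.0152). Securin, PTTG1, which holds separase inactive (-0.98), and CDC20, the APC/C activator (-0.87), fell as well, so that the protease and its inhibitor were lower together.

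For spindle assembly, the midzone and cytokinesis, 4 of 5 genes fell (median -0.85). TPX2, which activates AURKA on spindle microtubules, stood at 68.3 and 78.7 TPM in si-NT cells and 35.2, 46.7, 40.6 and 28.4 TPM in BRG1 depleted cells (log2 fold change -0.96 ± 0.20 SE, adjusted p = 0.0066). ECT2, the exchange factor that activates RhoA at the cleavage site (-0.88), had the lowest adjusted p of the 60 members (0.00148), and RACGAP1, its centralspindlin partner (-0.85), and PRC1, the bundler of midzone microtubules (-0.78), fell too. ANLN, or anillin, the scaffold of the contractile ring, stood at 42.4 and 42.3 against 27.97, 34.5, 26.8 and 16.8 TPM and missed the threshold (log2 fold change -0.70 ± 0.25 SE, adjusted p = 0.0618), though its groups did not overlap.

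The 5 condensin and topoisomerase members, which compact and untangle chromosomes, all fell, with the most negative class median (-1.01). NCAPH, the kleisin of condensin I, stood at 48.4 and 55.05 TPM in si-NT cells and 20.1, 30.7, 24.3 and 19.7 TPM in BRG1 depleted cells (log2 fold change -1.11 ± 0.23 SE, adjusted p = 0.00541). TOP2A, which decatenates sister DNA, stood at 50.8 and 49.3 against 23.9, 31.4, 28.3 and 16.6 TPM (log2 fold change -1.01 ± 0.21 SE, adjusted p = 0.00566), close to 50.1% of control on the means. SMC4 (-1.06) and NCAPG (-0.99) fell by similar amounts. SMC2, the other ATPase of condensin, had the smallest fall, from 16.97 and 15.8 TPM to 8.84, 11.04, 10.5 and 6.19 TPM (log2 fold change -0.80 ± 0.18 SE, adjusted p = 0.00968).

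The strand setting of the authors' counting was not given in the sources used here, and some members share exonic bases with a gene on the opposite strand: 34.3% of PRC1 with PRC1-AS1, 33.7% of NCAPG with LCORL, 19% of SMC4 with TRIM59, 15.9% of FOXM1 with ITFG2, 14.9% of CENPU with PRIMPOL and 14% of KIFC1 with RPL12P1. Reads from the paired genes may not be separable in these values. The shared bases were taken from a later GENCODE release than the one the authors name for TPM, so the percentages may differ in theirs. BUB1B shares 5.4% of its exonic bases with PAK6 and CENPA 7.1% with SLC35F6 on the same strand.

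**Figure D3:**
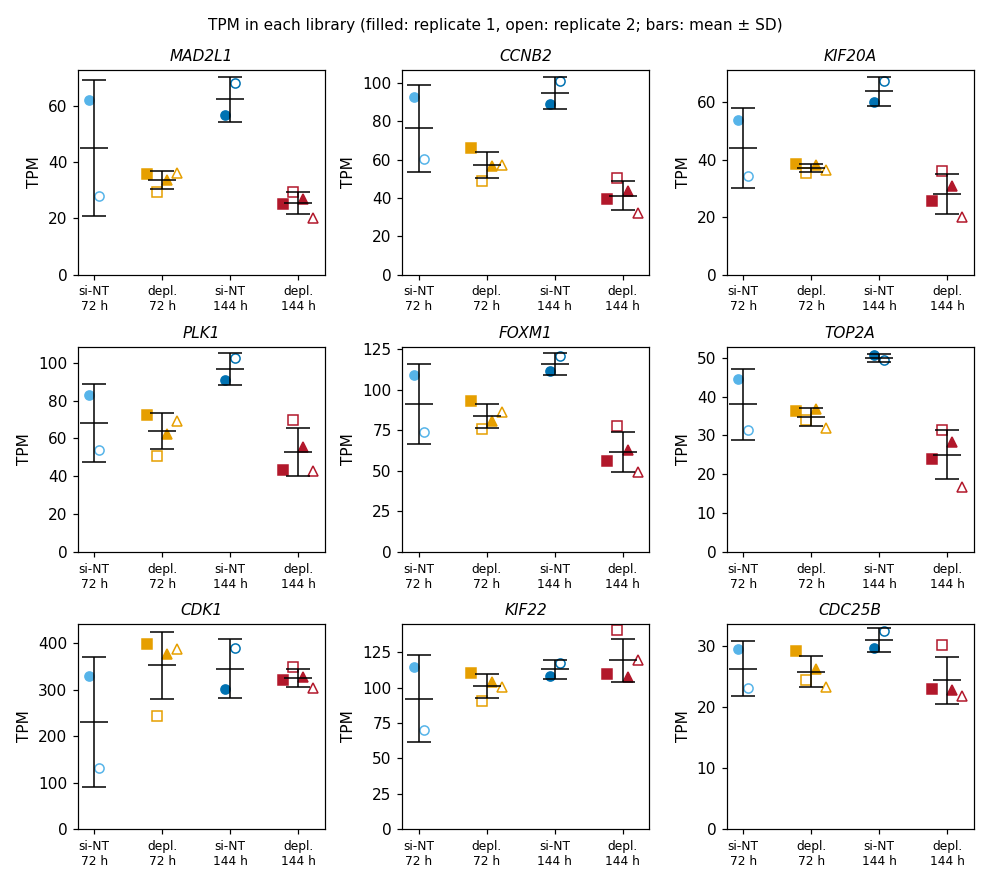
TPM in each library of 9 members (circles si-NT, squares siRNA 2, triangles siRNA 3, filled for replicate 1 and open for replicate 2), with the mean and SD of each group as black bars (n = 2 si-NT and n = 4 depleted). MAD2L1, CCNB2, KIF20A, PLK1, FOXM1 and TOP2A show depleted values below both controls at 144 h, and CDK1, KIF22 and CDC25B show overlap.

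At 72 h no member passed the test. Of the 60, 0 were called lower (0.557% of genes tested) and 0 higher (1.13%), and limma at an unadjusted p below 0.05 gave 0 lower (4.63%) and 1 higher (9.68%). The median log2 fold change was -0.13, beside 0.06 over all genes tested, and the estimate was negative for 52 members (6453 of the 16337 genes tested). Every depleted library lay below both si-NT libraries for KIF2C and CENPF, 2 of 60 (6.93% of genes tested). CENPF stood at 67.9 and 41.6 TPM in si-NT cells and 41.4, 37.5, 40.2 and 40.5 TPM in BRG1 depleted cells (log2 fold change -0.41 ± 0.21 SE, adjusted p = 0.414), its second control only just above the depleted values.

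These 72 h values turned on which si-NT library was used. At 72 h the 2 si-NT values of MAD2L1 were 61.9 and 27.9 TPM, against 35.6, 29.3, 33.4 and 36.04 TPM in BRG1 depleted cells. CCNB2 stood at 92.4 and 60.4 TPM against 65.9, 48.8, 56.5 and 57.3 TPM, and KIF20A at 53.9 and 34.4 TPM against 38.4, 35.4, 38.2 and 36.3 TPM. For MAD2L1 and KIF20A the first control was above all depleted values and the second below all of them, while for CCNB2 the second control lay among them. No share over all genes tested was computed for the next 2 counts. Over the 60 members, the second si-NT library was within or below the range of the 4 depleted libraries in 58 and below all of them in 30. Without it, the median log2 fold change at 72 h was -0.44, 59 estimates were negative, and 21 members had an unadjusted p below 0.05 and a negative value (4.27% of genes tested), but 0 were called (0.0918%). Without the first si-NT library instead, the median was 0.19, 6 estimates were negative, and 0 members had a negative value at an unadjusted p below 0.05 (4.44%). Leaving out 1 si-NT library at 72 h thus turned the direction of the median.

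**Figure D4:**
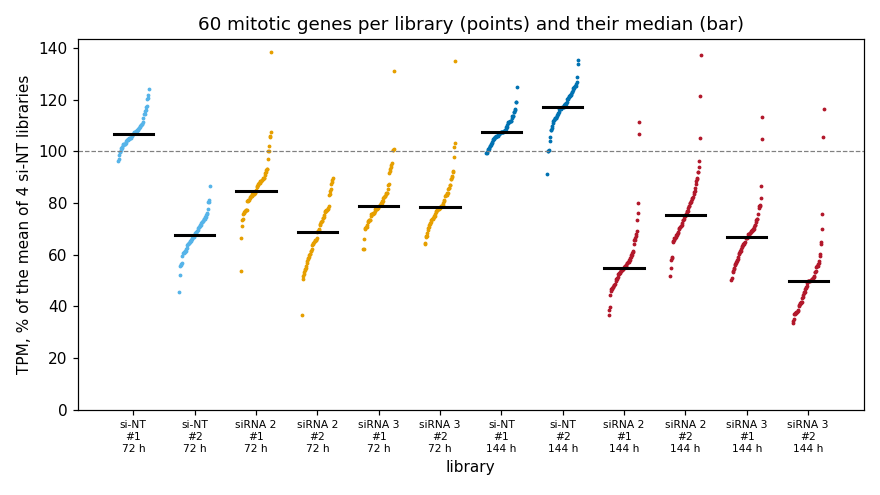
TPM of the 60 genes as a percentage of the mean of the 4 si-NT libraries (points, sorted within each library) with the library median as a black bar and 100% as a dashed line. The medians of the si-NT libraries are 106.8%, 67.6%, 107.4% and 117.2%, the BRG1 depleted medians run from 68.9% to 84.8% at 72 h and from 49.7% to 75.4% at 144 h.

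Against the 3 other si-NT libraries, an alternative chosen after seeing the data, all 4 depleted libraries at 72 h were lower for 56 members (11.1% of genes tested), and those at 144 h for 57 (19.5%). Against all 4 si-NT libraries the numbers were 2 (4.43%) and 15 (12.7%). When si-NT libraries of both time points formed a single control group, the median log2 fold change was -0.34 at 72 h, with 0 members called lower (2.1%), 0 higher (5.28%) and 18 with an unadjusted p below 0.05 and a negative value (7.27%), and -0.64 at 144 h, with 49 called lower (13.6%) and 0 higher (17.2%). The 144 h fall was also present against the pooled group, at a smaller size. That group includes the 2 si-NT libraries of 144 h, so it is not an independent set of controls. The second si-NT library at 72 h lay within or below the range of the depleted libraries at 144 h for 45 members, and below all of them for 2. For these counts too, no share over all genes tested was computed. What set the second si-NT library apart was not tested.

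CDK1 was the 1 member with an unadjusted p below 0.05 at 72 h, in the opposite direction to most of the others. It stood at 330.4 and 131 TPM in si-NT cells and 399, 244, 378 and 389 TPM in BRG1 depleted cells (log2 fold change 0.73 ± 0.30 SE, adjusted p = 0.28). The spread between its controls was the widest of all members, the second being at 39.7% of the first. Its log2 fold change was 1.39 without the first si-NT library (adjusted p = 0.0379) and 0.07 without the second (adjusted p = 0.935). KIF22 stood at 114 and 70.3 TPM against 110.5, 90.5, 104 and 101 TPM, with its second control again the lowest value (log2 fold change 0.17 ± 0.17 SE, adjusted p = 0.718).

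The change was more negative at 144 h than at 72 h for 60 of 60 members (8757 of the 16337 genes tested). The median difference between the members' log2 fold changes was -0.72. In limma's test of this difference 0 members were called (0.0184% of genes tested), the lowest adjusted p being 0.265, and 40 had an unadjusted p below 0.05 (11.9%). This comparison also rested on the 72 h controls, since without the second si-NT library the median difference was -0.41 with 3 members at an unadjusted p below 0.05 and a negative value (2.65%), and without the first it was -1.06 with 58 (9.36%). In si-NT cells, 0 members were called between 144 h and 72 h (0.0% of genes tested), and 3 had an unadjusted p below 0.05 (4.11%). The estimates, 144 h over 72 h, were positive for all 60, with a median of 0.38 beside 0.0 over all genes tested. Without the second si-NT library at 72 h that median was 0.07, with 49 positive, and without the first it was 0.67.

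BRG1 depleted cells were also compared with each other across time, in the same fit of 4 groups. The difference itself used no si-NT library, but its p-values used the spread shared by all 4 groups, si-NT libraries included. Without a control, longer BRG1 depletion cannot be told apart from time in culture, the split and the second transfection. This comparison was added after seeing the data. The log2 difference, 144 h over 72 h, was negative for 59 of 60 members (9406 of the 16337 genes tested). Its range over the members was -0.67 to 0.23 and its median -0.33, beside -0.04 over all genes tested. A single member was called, CENPE at -0.67 (1.68% of genes tested were called lower), and 26 had an unadjusted p below 0.05 and a negative value (12.2%). CENPE stood at 6.15, 5.87, 6.9 and 7.22 TPM at 72 h and 3.13, 4.68, 4.69 and 2.71 TPM at 144 h, without overlap. All 4 libraries at 144 h lay below all 4 at 72 h for 12 members (7.12% of genes tested). The number called ranged from 0 to 3 over the fits that left out 1 library.

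The 2 siRNAs were compared with each other in a fit with 6 groups. At 144 h 0 members differed between them (0.331% of genes tested) and 1 had an unadjusted p below 0.05 (13.3%). At 72 h the numbers were 0 (0.141%) and 1 (8.33%), and neither siRNA gave a member called lower against si-NT (0.63% of genes tested for siRNA 2 and 0.226% for siRNA 3). Set against si-NT at 144 h, siRNA 2 gave 24 members called lower (7.67% of genes tested) with a median of -0.77, and siRNA 3 gave 43 (10.4%) with a median of -0.96. The library medians at 144 h were 55.0% and 75.4% of the si-NT mean for siRNA 2, and 66.8% and 49.7% for siRNA 3. Of the 4 depleted libraries at 144 h, siRNA 2 replicate 2 was the highest for 52 members and siRNA 3 replicate 2 the lowest for 51. Against the si-NT library of the same number at 144 h, the median of the members was 51.5% and 64.3% for siRNA 2 and 60.9% and 40.5% for siRNA 3. At 72 h, the same comparison gave 79.8% and 74.1% in replicate 1 of siRNA 2 and 3. In replicate 2, where the si-NT library was the low one, it gave 101.8% and 117.4%, with 28 and 4 members below that si-NT library. Replicate numbers were not shown to pair the libraries, so these are not matched pairs.

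Other genes of mitosis, in lists of further members of the same machinery, were examined at 144 h beside the same shares of all genes tested (10.8% lower, 13.6% higher). Of 18 other spindle and cytokinesis genes, 17 were called lower and 0 higher (median -0.82), from HMMR, a microtubule-binding protein at -1.20, to BORA, an AURKA activator at -0.43. Among 25 other kinetochore and centromere genes, 16 were lower and 0 higher (median -0.67). ZWILCH, a subunit of the complex that brings dynein to kinetochores, had the most negative value (log2 fold change -1.23 ± 0.23 SE, adjusted p = 0.00377) and CENPT, a DNA-binding centromere subunit, the least (log2 fold change 0.20 ± 0.14 SE, adjusted p = 0.346). The 4 subunits of the MIS12 complex, which joins centromeric chromatin to NDC80, were not called: NSL1 stood at -0.29 (adjusted p = 0.129), DSN1 at -0.27 (0.324), MIS12 at -0.17 (0.26) and PMF1 at -0.12 (0.496). Every depleted library lay below both si-NT libraries for NSL1, DSN1 and MIS12 (22.5% of genes tested), while PMF1 overlapped. Of 15 other regulators of mitotic entry and exit, 11 were lower and 0 higher (median -0.78), led by CKS1B, a small CDK subunit (-1.16), with FZR1, the G1 activator of the APC/C, at the other end (log2 fold change 0.21 ± 0.18 SE, adjusted p = 0.43).

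Lists next to the mitotic core had medians nearer to 0 or above it. Of the 14 core subunits of the APC/C, the ligase that CDC20 and UBE2C serve, 2 were lower and 0 higher (median -0.09, range from ANAPC1 at -0.49 to ANAPC2 at 0.33). Cohesin and the condensin genes outside the member list gave 5 lower and 0 higher of 13 (median -0.23), against 10.8% and 13.6% of genes tested. Values ran from NCAPD2, a condensin I subunit, at -0.87 to NIPBL, the cohesin loader, at 0.14. The cohesin genes SMC1A (-0.64, adjusted p = 0.0139), RAD21 (-0.59, 0.00517) and SMC3 (-0.48, 0.00788) were called lower. STAG1 (-0.23, adjusted p = 0.237) and STAG2 (-0.08, 0.805) were not. Of the condensin II subunits in that list, NCAPG2 was lower (-0.74), while NCAPH2 (-0.37, adjusted p = 0.0937) and NCAPD3 (-0.04, adjusted p = 0.922) were not called. Of 5 MuvB genes (median -0.34), LIN9 alone was called lower (log2 fold change -0.84 ± 0.18 SE, adjusted p = 0.00683). RBBP4 (-0.38, adjusted p = 0.051), LIN54 (-0.34, 0.24) and LIN52 (-0.28, 0.156) were not called. In each of them every depleted library lay below both si-NT libraries (22.5% of genes tested). LIN37 stood at 0.23 (adjusted p = 0.213), with every depleted library above both si-NT libraries (4269 of the 16337 genes tested).

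Transport kinesins and their light chains, which carry cargo and do not build the spindle, were set beside the 12 mitotic kinesins. Of the 16 tested from 18 listed, 0 were lower and 5 higher (median 0.33), against 10 lower and 0 higher of the mitotic kinesins. Of all genes tested, 10.8% were lower and 13.6% higher. KIF13A, an endosome motor, rose from 7.22 and 8.04 TPM in si-NT cells to 15.4, 12.9, 13.5 and 13.5 TPM in BRG1 depleted cells (log2 fold change 0.78 ± 0.12 SE, adjusted p = 0.00144), and KIF3A, a ciliary motor, had the most negative value (log2 fold change -0.45 ± 0.22 SE, adjusted p = 0.16). Under ERCC scaling, where all genes tested had a median of -0.31 at 144 h, the median of the transport kinesins was -0.04 and that of the mitotic kinesins -1.18. Beside the same shares of all genes tested, 1 of 10 tubulin genes was lower, TUBA1B (log2 fold change -0.76 ± 0.25 SE, adjusted p = 0.0491), and 4 were higher. The most positive was TUBA1A (log2 fold change 1.70 ± 0.39 SE, adjusted p = 0.00997), which rose from 11.3 and 18.8 TPM to 31.6, 32.8, 66.9 and 85.7 TPM.

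**Figure D5:**
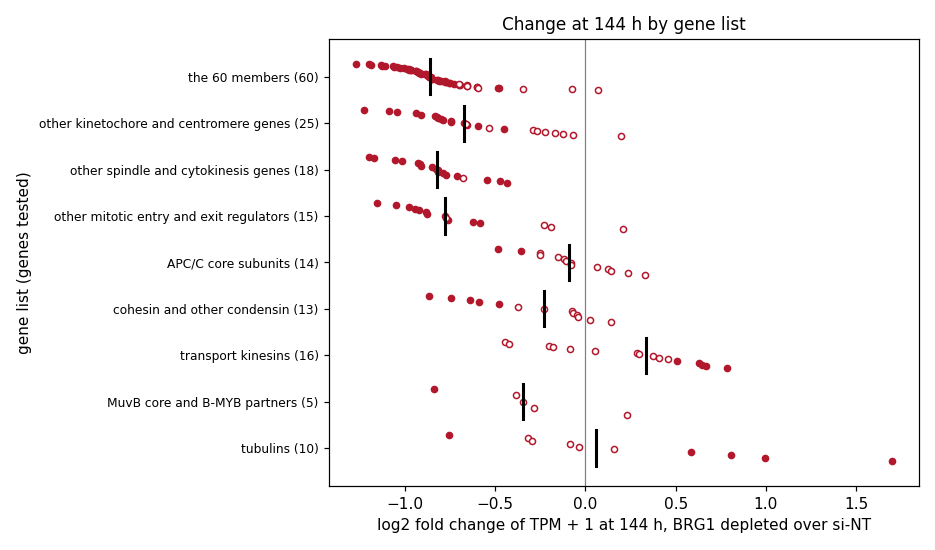
Log2 fold change of TPM + 1 at 144 h, BRG1 depleted over si-NT, for the 60 members and 8 further lists (points, filled where the adjusted p was below 0.05), with the median of each list as a black bar. The members and the 3 lists of other kinetochore, spindle and entry genes have medians between -0.67 and -0.86, the APC/C core lies near 0 and the transport kinesins at 0.33.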

How the data were processed

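RNA-seq was analysed in 12 LNCaP libraries, grouped by the labels into si-NT (n = 2) and BRG1 depleted (n = 4) cells at 72 h and 144 h. The authors added ERCC spike-ins to total RNA and used a stranded mRNA kit, and, as their methods describe, STAR (hg19, GRCh37), featureCounts and GENCODE genes led to the deposited TPM values, which cover 63568 genes and 92 spike-ins. Their methods also name a normalisation of the counts by these spike-ins. Whether it entered the deposited TPM values is not stated. The submitters' processing notes name Trim Galore 0.11.2, FastQC and STAR 2.4.0j. The tool that made TPM and the strand setting of the counting are not given in the sources used here. Because TPM keeps no depth, count models could not be used, and the counting error is unknown. Spike-ins took between 0.805% and 1.97% of TPM, and libraries had 14706 to 15355 genes at 1 TPM or more.

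Spike-ins were left out of the tests. Genes had to reach 1 TPM in 2 or more libraries, which 16337 did. Their log2(TPM + 1) values were fitted with limma 3.58.1 in R 4.3.3 (lmFit, contrasts.fit, and eBayes with an expression trend, prior df 3.53) in 4 groups sharing 1 estimate of the spread, with Benjamini-Hochberg adjustment over all of them. A pseudocount of 1 understates the change of low genes. The siRNAs were compared in 6 groups. The table numbers the siRNAs 2 and 3 and the labels number them otherwise, and 1 library at 72 h has labels that name different siRNAs, so columns were matched to groups only. The main fit was also run on simulated data with noise drawn separately for each gene. Shifts of many genes together in 1 library were not simulated, so that run does not bear on them. Summaries used Python 3.11.15, NumPy 2.4.6 and pandas 2.3.3, and figures matplotlib 3.10.9. Symbols came from GENCODE tables, with 55665 gene rows given one, and promoters from RefSeq (GRCh38.p14), while gene positions are on GRCh37.

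The members and all lists were chosen with earlier results of these data known. In each of 9 classes by function, the members with the most and the least negative change at 144 h were given in full, with PLK1, AURKB, BIRC5, CCNB1, CDK1, FOXM1 and TOP2A. Of 8 other lists, the genes at both ends were named. Genes named for other reasons were chosen after their values were seen. Alternatives were another pseudocount, filters, scalings, groupings of the controls, a replicate block and leaving out each library in turn.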

Additional observations from a re-analysis of the deposited data

Results flagged for a closer look

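In groups of 4 libraries, 9 of 122 gene and group combinations had a library far from the other 3 by Dixon's ratio, and chance marks about 1 in 20 groups. In BRG1 depleted cells at 72 h, siRNA 2 replicate 2 was the low library for 7 members, while the others lay close together. KIF4A stood at 13.24 TPM there, against 15.24 to 15.56 TPM in the others, and KIF18B at 13.21 TPM, against 18.09 to 19.16 TPM. The kinetochore genes CENPI (5.95 TPM, against 6.71 to 6.86), NDC80 (10.34 TPM, against 14.66 to 15.51) and NUF2 (18.06 TPM, against 22.67 to 23.59) showed the same, as did CDC20 (94.25 TPM, against 133.7 to 140.8). CDK1 stood at 244.4 TPM in that library, against 377.9 to 398.6 TPM, and was not called with or without it. KIF11 had its high library in siRNA 2 replicate 1 at 72 h (13.43 TPM, against 11.91 to 12.11). At 144 h, CDC25B had its high library in siRNA 2 replicate 2, at 30.03 TPM, against 21.69 to 22.92 TPM.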

How the results depend on the processing

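The number of members lower at 144 h, 53, moved to 30 when libraries were scaled to the ERCC spike-ins. Settings stricter by construction gave 22 (adjusted p below 0.01), 11 (log2 fold change beyond 1) and 0 (beyond 1.5). Without the filter on low values, with 33048 genes in the test, the number was 38. Over the fits that left out 1 library it ranged from 9 to 56, with 9 without si-NT 144 h replicate 2 and 23 without replicate 1. The median log2 fold change at 144 h ranged from -0.96 to -0.78 over those fits and was -1.25 under ERCC scaling, where the median of all genes tested was -0.31, so that the members' median relative to it was -0.93 (-0.89 relative to all genes in TPM). Under ERCC scaling 614 of all genes tested were called lower and 138 higher at 144 h, against 1761 and 2222 in TPM. At 72 h the median ranged from -0.44 to 0.19 over the fits that left out 1 library, and the number of members higher from 0 to 1 (CDK1, without si-NT 72 h replicate 1). At 72 h, KIF4A, KIF11, KIF18B, CENPU and CDCA8 changed sign under median-of-ratios, quantile and ERCC scaling, and KIF18A and KIF22 under ERCC scaling only. The median of all genes tested moved from 0.06 in TPM to -0.01, 0.01 and -0.11 under median-of-ratios, quantile and ERCC scaling. Relative to that median, 0 members changed sign at 72 h under any of them. The cause of these shifts was not tested.

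The replicate block gave 53 members lower at 144 h and 0 at 72 h and changed no call count. Replicate numbers were not shown to pair the libraries: over 15 pairs of groups the correlation of same-numbered deviations ranged from -0.23 to 0.30, with 2 above 0.1. Of 598 comparisons of the 23 members given in full at 144 h, 498 stayed on their side of the threshold, 92 lost the call and 8 gained it. Among the 498, the estimate changed sign in 4, all of CDK1 or KIF22, which were not called. TPM holds no depth, and 2 si-NT libraries per time point limit every comparison.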

Other observations

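Across the 12 libraries, the share of TPM taken by the ERCC spike-ins was highest, at 1.97%, in siRNA 3 replicate 2 at 144 h, the library with the lowest median of the 60 members (49.7% of the si-NT mean), and lowest, at 0.805%, in si-NT replicate 1 at 144 h. The members' mean level in the 4 si-NT libraries ran from 4.99 TPM for KIF18A to 298.1 TPM for PTTG1, with a median of 35.7 TPM.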
